A study of Mus musculus with 4 samples.

Results

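Butyrate, a 4-carbon short-chain fatty acid, was compared with saline as an infusion into the cecum, and the liver was the tissue measured. The comparison covered 9410 genes, those at or above a level floor, of the 18820 genes named on the arrays, and consisted of 1 array of each group. The floor was the median over all genes of the mean log2 expression level in the 4 pools of the study, 5.55. Expression was given as log2 levels, so a log2 ratio of 1 stands for a 2-fold difference. Genes were called higher or lower with butyrate at 1.5-fold or more, which is 0.585 on the log2 scale.

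The mice were C57Bl/6J males, described as 2 months old in the protocols and as 16 to 17 weeks old in the sample descriptions. Every group had received a semi-synthetic diet with palm oil for 6 weeks, a permanent catheter in the cecum with at least 5 days of recovery, and a short fast before the infusion, which was given to conscious animals. The butyrate group received sodium butyrate labelled with carbon-13, at 0.3 M and 0.2 ml/h, which equals 2.4 mmol/h/kg, for 6 h. The saline group received saline by the same route over the same 6 h. The acetate and propionate groups, used here only to show where the 2 compared pools stood, received the carbon-13 labelled sodium salts of those acids at the same concentration and rate. How much sodium the saline held was not given in these sources, and whether both groups received the same sodium load is therefore not known. Liver RNA was combined before hybridisation, from 4 mice for butyrate and from 6 mice each for saline, acetate and propionate, so each mouse made up a larger share of the butyrate pool. With 1 array per pool there were no replicates: no difference below has a replicate check, and none was tested.

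Butyrate is made by bacteria that ferment fibre in the large intestine. The cells of the colon use much of it as fuel, and the portal vein carries the rest to the liver. In hepatocytes, acyl-CoA synthetases of the mitochondrial matrix activate it to butyryl-CoA, and beta-oxidation converts this to acetyl-CoA, which can enter the TCA cycle, ketone bodies, or fatty acid and cholesterol synthesis. Butyrate also inhibits histone deacetylases and is a ligand of G protein-coupled receptors on immune, fat and gut cells.

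The butyrate and saline pools were close over most genes. Of the 9410 genes, 8601 (91.4%) lay within 1.2-fold, the median log2 ratio was -0.0036, and 4579 (48.7%) had the higher level with butyrate. At 1.5-fold or more, 71 genes were higher with butyrate (0.755%) and 34 were lower (0.361%). At 2-fold or more the counts were 14 and 15. Ratios were wider at low levels: of the 2353 genes with the lowest levels above the floor 52 passed 1.5-fold and the SD of the log2 ratios was 0.25, and of the 2353 with the highest levels 7 passed, with an SD of 0.12. The threshold fell within a dense range. Cd44 at 0.59 was the gene just inside on the higher side and Aph1c at 0.58 the gene just outside, and on the lower side Cox7a1 at -0.59 lay inside and Cela3b at -0.58 outside.

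**Figure D1:**
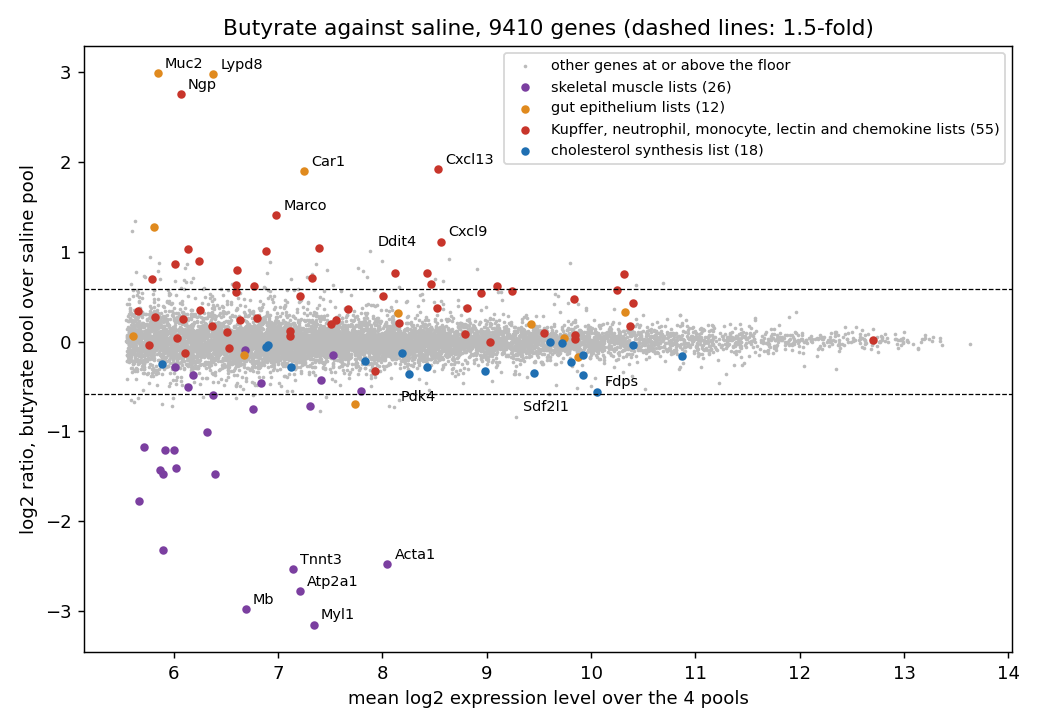
Log2 ratio of the butyrate pool over the saline pool (vertical axis) against the mean log2 level over the 4 pools (horizontal axis); each point is 1 of the 9410 genes, coloured by gene list, and the dashed lines mark 1.5-fold. Skeletal muscle genes make up the lower edge, down to -3.15 for Myl1, and the upper edge is held by the gut genes Muc2 and Lypd8, the neutrophil gene Ngp, and macrophage and chemokine genes.

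Of the genes past the threshold, 35 of the 71 higher and 21 of the 34 lower were members of a gene list, and the other 36 and 13 were in none. Of the 34 lower genes, 18 belonged to lists of skeletal muscle genes, and no muscle gene was among the 71 higher genes. The muscle lists held 26 genes at or above the floor. Of the 71 higher genes, 25 belonged to lists of immune cells and immune signalling, against 0 of the 34 lower ones. The immune lists held 143 genes at or above the floor. All lists were chosen with earlier results of these data known. Of 221 genes at or above the floor in lists of liver metabolism (acid activation and oxidation, ketone bodies, lipids, glucose, bile acids, urea and drug metabolism), 0 were higher and 1, Pdk4, was lower.

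Where the butyrate pool and the saline pool stood among all 4 pools differed by gene. The butyrate pool lay above all 3 other pools by 1.5-fold or more at 13 genes (0.138%) and below all of them at 20 (0.213%). The saline pool lay above all 3 acid pools at 3 genes (0.0319%) and below all of them at 2 (0.0213%). Among the 34 lower genes the butyrate pool stood apart at 20, the saline pool stood apart at 3, and neither did at 11. Among the 71 higher genes the saline pool was below the floor level at 13, and 6 had a mean over the other 3 pools below it, so these 6 were included only through the butyrate pool. The butyrate pool was the highest of the 4 at 60 of the 71, but it stood apart by 1.5-fold or more at 13, and neither pool stood apart at 56. Measured against the mean of the saline, acetate and propionate pools in place of saline, 32 of the 71 higher and 21 of the 34 lower genes still passed 1.5-fold.

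Over all 18820 genes, without the floor, 137 (0.728%) were higher and 116 (0.616%) were lower with butyrate. The lists below are counted over all their measured members, also those below the floor, so these shares are their background, beside a median ratio of -0.0029 over all genes. In bulk tissue, fewer cells of a type and less RNA per cell cannot be told apart. Short probes can cross-hybridise between close relatives such as the myosin heavy chains, so values of such genes are uncertain as to the member.

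**Figure D2:**
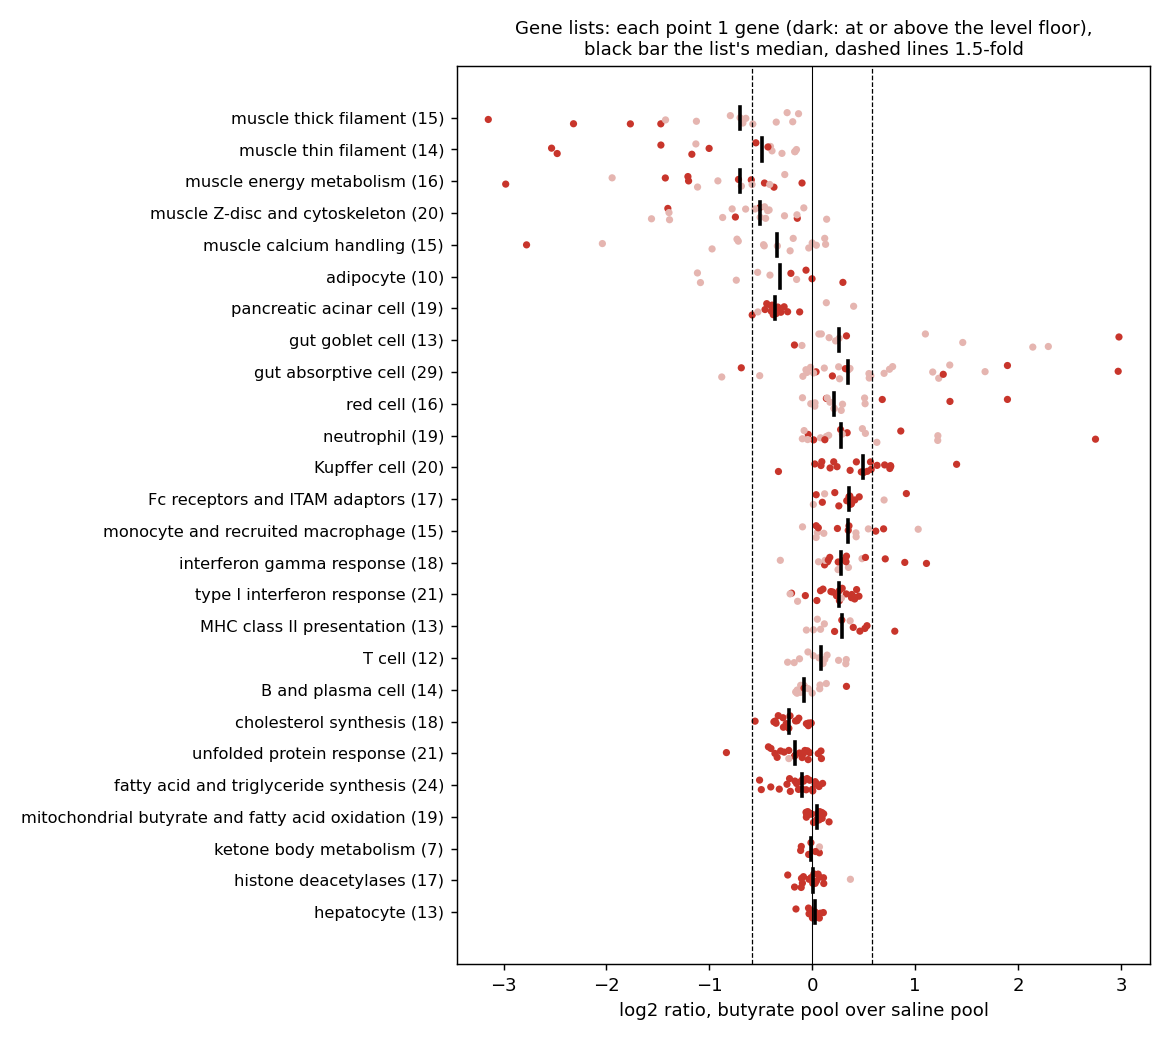
Log2 ratios of butyrate over saline (horizontal axis) for the members of 26 gene lists (rows, with the number of measured genes in brackets); points are genes, dark where the gene is at or above the level floor, black bars are list medians and dashed lines mark 1.5-fold. The 5 muscle lists shown lie to the left with medians between -0.70 and -0.34, the Kupffer cell list to the right with a median of 0.49, and lists of butyrate oxidation, ketone bodies and histone deacetylases lie around 0.

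Genes of the contractile apparatus of skeletal muscle were the largest group of lower genes. Over all muscle lists 81 of 87 measured genes were lower with butyrate than with saline, with a median log2 ratio of -0.51. By 1.5-fold or more 39 were lower and 0 higher, and 18 of the 39 were at or above the floor. The butyrate pool was the lowest of the 4 pools at 75 of the 87. The mean log2 level of the 87 genes was 5.39 with saline, 5.40 with acetate, 5.48 with propionate and 4.64 with butyrate, so the other 3 pools were close together.

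In the thick filament, whose myosin motors pull on actin, all 15 measured genes were lower and 10 passed 1.5-fold, with a median of -0.70. Only 4 of the 10 were at or above the floor. Myl1, a myosin light chain of fast fibres, was at 8.05 with saline, 8.21 with acetate, 8.20 with propionate and 4.90 with butyrate, an 8.87-fold lower level than with saline. The fast myosin heavy chain Myh2 was at 6.58, 6.33, 6.43 and 4.26 in the same order. Myh1 and Myh4, 2 more fast heavy chains, had ratios of -1.47 and -1.77. At each of these 4 genes the butyrate pool alone was low.

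In the thin filament all 14 measured genes were lower and 6 passed 1.5-fold, 5 of them at or above the floor. Acta1, the actin of skeletal muscle, was at 8.64 with saline, 8.54 with acetate, 8.85 with propionate and 6.16 with butyrate. Tnnt3, the fast form of the troponin subunit that binds tropomyosin, was at 7.69, 7.60, 8.11 and 5.16. Tpm2, a tropomyosin, had a ratio of -1.47, the fast troponin Tnnc2 one of -1.17, and the fast troponin Tnni2 was at 6.49 with saline and 5.49 with butyrate. In the Z-disc, which anchors the thin filaments, 19 of 20 genes were lower and 8 passed. Only 2 of the 8 were at or above the floor, Actn2 at -1.40 and the intermediate filament gene Des at -0.75.

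Calcium handling and energy supply of muscle showed the same direction. Atp2a1, the calcium pump of the sarcoplasmic reticulum in fast fibres, was at 7.87 with saline, 7.80 with acetate, 8.07 with propionate and 5.09 with butyrate. Of 15 calcium genes 12 were lower and 5 passed 1.5-fold, but only 1 of the 15, Atp2a1, was at or above the floor. Pvalb, a calcium buffer of fast fibres below the floor in its mean over pools, had a ratio of -2.04 from 5.90 with saline to 3.87. All 16 energy genes were lower and 10 passed, 6 of them at or above the floor. Mb, the oxygen store myoglobin, was at 7.50, 7.20, 7.54 and 4.52 in the order saline, acetate, propionate and butyrate, and Ckm, muscle creatine kinase, had a mean ratio of -1.20 over probe sets that disagreed, at -2.41 and 0.0097. Pygm, the phosphorylase that mobilises muscle glycogen, had a ratio of -1.21.

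Genes of fast fibres had larger ratios than genes of slow fibres and heart. Among 13 genes typical of fast fibres all were lower, 12 by 1.5-fold or more, with a median of -1.47 and a lowest ratio of -3.15. Of the 13, 8 were at or above the floor. Among 7 genes typical of slow fibres or heart all were lower, 3 by 1.5-fold or more, with a median of -0.29 and a lowest ratio of -0.70, but all 7 lay below the level floor. The 7 regulators of the muscle lineage, such as Myod1 and Myog, had a median of -0.098 with 0 past 1.5-fold, and 6 of them lay below the floor. Of the 34 lower genes 18 were below the floor level in the butyrate pool, so their ratios end at low levels there.

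Pdk4, Eno3, Cox7a1 and Slc25a4 are used by muscle and also by other tissues. Pdk4, the kinase that switches off pyruvate dehydrogenase in fasting, was at 8.12 with saline, 8.80 with acetate, 8.12 with propionate and 7.40 with butyrate, a ratio of -0.72. Eno3, the muscle form of enolase, which the liver also expresses, had a ratio of -0.72, and Slc25a4, the heart and muscle form of the ADP/ATP carrier, one of -0.60. The butyrate pool was the lowest at all 4 of these genes, as it was for the muscle lists, and the part of muscle RNA in their values was not tested.

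**Figure D3:**
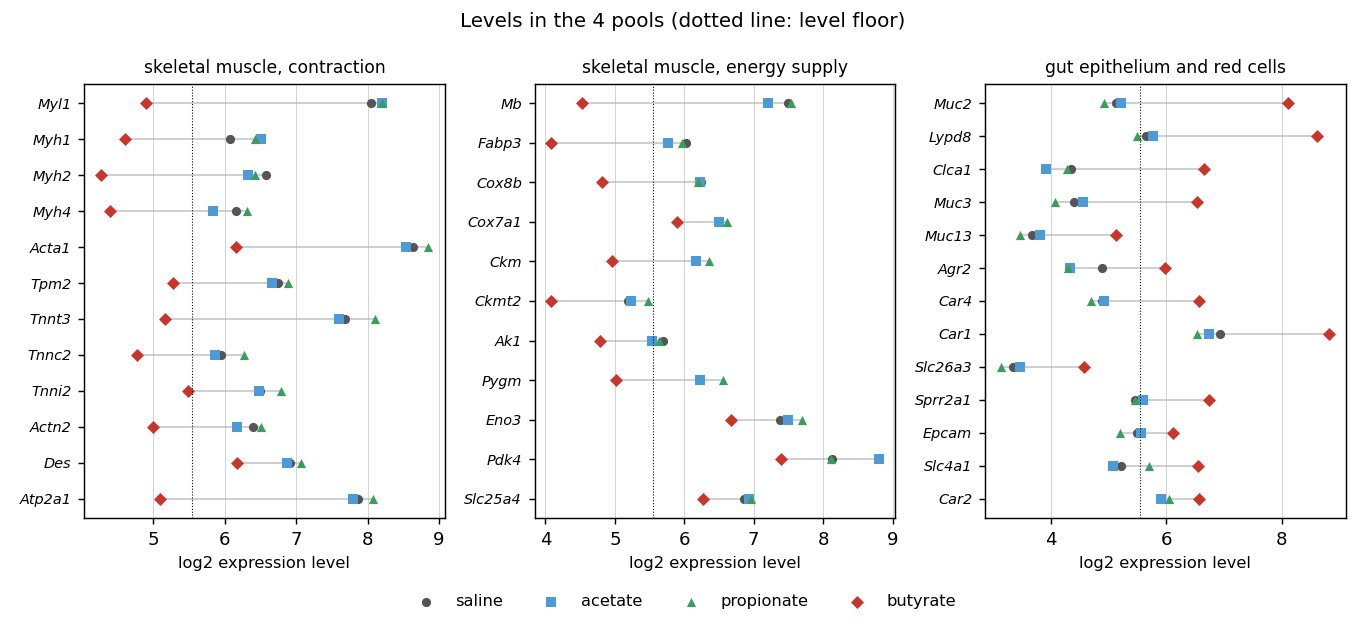
Log2 levels (horizontal axes) of muscle genes (left and middle) and of gut and red cell genes (right) in the 4 pools; each symbol is 1 pool, grey lines span the lowest and highest pool and the dotted line is the level floor of 5.55. The butyrate pool (red) lies left of the other 3 at the muscle genes shown and right of them at the gut genes shown, Muc2 at 8.11 against 4.92 to 5.22. The genes shown were picked. Over all gut lists the butyrate pool was the highest at 31 of 52 genes, and 13 of the 52 were below saline.

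Muc2 and Lypd8, genes of the lining of the large intestine, had the 2 highest ratios among genes at or above the floor. Muc2, the main gel-forming mucin of goblet cells, was at 5.13 with saline, 5.22 with acetate, 4.92 with propionate and 8.11 with butyrate, which is 7.89-fold above saline. The other 3 pools were below the floor level, so Muc2 was among the 9410 genes only through the butyrate pool. Lypd8, a protein of the colon surface that keeps flagellated bacteria away, was at 5.64, 5.77, 5.48 and 8.61. At both genes the other 3 pools were close together and only the butyrate pool was high.

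The goblet cell list had 11 of 13 genes above saline and 5 past 1.5-fold, with a median of 0.26. Below the floor in their mean over pools, Clca1, a secreted protein of goblet cells, went from 4.35 with saline to 6.65 with butyrate, and Agr2, a folding enzyme for mucins, from 4.88 to 5.98. The membrane mucins Muc3 and Muc13, also below the floor in their mean over pools, had ratios of 2.14 and 1.46. Of the 5 goblet cell genes past 1.5-fold, only 1, Muc2, was at or above the floor. In contrast, the goblet cell genes Zg16 and Tff3 had ratios of -0.17 and 0.33.

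Absorptive cells gave 22 of 29 genes above saline, with 10 higher and 2 lower by 1.5-fold or more and a median of 0.35. Of the 10 higher genes, 3 were at or above the floor. Car4 and Slc26a3, an anhydrase and the chloride exchanger of the colon surface, had ratios of 1.68 and 1.23. Both lay below the floor in their mean over pools. Car1, an anhydrase of both colon and red cells, was at 6.93, 6.73, 6.52 and 8.82 in the order saline, acetate, propionate and butyrate. Alpi, the intestinal alkaline phosphatase, which lay below the floor in all 4 pools, had a ratio of -0.88, with the saline pool the highest. Aqp8, a water channel made by colon cells and also by hepatocytes, was at 8.12 with saline and 7.43 with butyrate. The 10 stem and endocrine cell genes of the gut had a median of 0.022 with 0 past 1.5-fold, and only 2 of them were at or above the floor.

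Markers of other tissues that a liver sample may carry also differed between the 2 pools. The mean log2 level of the 19 measured pancreatic acinar genes was 8.59 with saline, 7.91 with acetate, 8.09 with propionate and 8.29 with butyrate, so saline was the highest pool, and 17 of 19 genes were below saline with a median of -0.36 and 0 past 1.5-fold. With the mean of the saline, acetate and propionate pools as reference the pancreatic median was 0.11. Of 10 adipocyte genes 9 were lower with butyrate, 3 by 1.5-fold or more, among them Retn, from 5.70 to 4.61, and the fat hormone gene Adipoq, from 4.73 to 3.99. All 3 lay below the floor in their mean over pools. The adipocyte median was -0.31 over all 10 genes and -0.031 over the 4 at or above the floor. Of 16 red cell genes 14 were above saline, but only 4 were at or above the floor. The 3 that passed 1.5-fold were Slc4a1, Car2 and Car1, and colon also makes Car1. Slc4a1, the band 3 anion exchanger, was at 5.21, 5.07, 5.71 and 6.54, and without the butyrate pool its mean was below the floor level. These tissues' part in the values of genes they share with liver was not tested. The 13 hepatocyte genes, such as Alb with 13.32 and 13.36, had ratios between -0.16 and 0.11 and a median of 0.028.

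Genes of Kupffer cells, the resident macrophages of the liver, were mostly higher with butyrate. Of 20 measured genes 19 were above saline, 6 by 1.5-fold or more and 0 lower by that much, with a median of 0.49, and the butyrate pool was the highest of the 4 at 16. Their mean log2 level was 8.61 with saline, 8.51 with acetate, 8.91 with propionate and 9.06 with butyrate. Marco, a scavenger receptor for bacteria, was at 6.45, 6.20, 7.42 and 7.85, so propionate was also high. Timd4, a receptor for dying cells, was at 7.19, 6.93, 7.29 and 7.90, and here the other 3 pools were close. Adgre1, an adhesion receptor that marks macrophages, was at 8.10, 7.92, 8.82 and 8.86. The complement components C1qa, C1qb and C1qc, made by these macrophages, had ratios of 0.37, 0.43 and 0.54. Id3, a transcription factor of Kupffer cells, was the 1 gene below saline at -0.33.

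Receptors that macrophages and other myeloid cells carry followed the same direction. All 17 Fc receptor and signalling adaptor genes were above saline, 2 by 1.5-fold or more, with a median of 0.36. The median with propionate over the same saline pool was also 0.36, and the saline pool was the lowest of the 4 at 11 of the 17. Fcer1g, the shared signalling chain of Fc receptors, was at 8.15 with saline, 8.46 with acetate, 8.86 with propionate and 9.07 with butyrate. Among lectins and Siglecs 14 of 16 were above saline and 4 passed. Their median was 0.25 with butyrate and 0.35 with propionate over the same saline pool. Siglece, an inhibitory receptor for sialic acid, was at 6.91, 6.96, 7.75 and 7.95, with saline and acetate low and propionate and butyrate high. Clec4a1 and Clec4a3, near relatives whose probes may share signal, had ratios of 1.01 and 1.03.

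Of 17 Toll-like receptor genes and adaptors 13 were above saline and 2 passed 1.5-fold, with a median of 0.14. Cd14, the co-receptor for lipopolysaccharide, was at 5.77, 5.80, 6.29 and 6.63 in the order saline, acetate, propionate and butyrate. Tlr2, which senses bacterial lipoproteins, had a ratio of 0.54 and did not pass 1.5-fold. Of 15 genes of monocytes and recruited macrophages 14 were above saline and 3 passed, among them the oxidase subunit Cybb at 0.62 and the integrin Itgam at 0.69. The saline pool was the lowest of the 4 at 10 of these 15 and butyrate the highest at 7. The monocyte list's median was 0.35 with butyrate and 0.34 with propionate over the same saline pool, and for butyrate it was 0.10 over the mean of the saline, acetate and propionate pools. Gpnmb, a gene of lipid-laden macrophages, was at 3.84 with saline, 6.99 with acetate, 6.37 with propionate and 4.39 with butyrate, so the butyrate pool was near saline there.

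Of 19 neutrophil genes 15 were above saline and 5 passed 1.5-fold, with a median of 0.28, and 2 of the 7 at or above the floor passed. Ngp, a granule protein of maturing neutrophils, was at 5.79 with saline, 4.40 with acetate, 5.54 with propionate and 8.54 with butyrate, 6.74-fold above saline. Without the butyrate pool its mean was below the floor level. Ltf, the iron-binding lactoferrin of secondary granules, was at 4.99, 4.65, 4.73 and 6.21. S100a8 and S100a9, the subunits of calprotectin, had ratios of 1.22 and 0.86. The mean level of the list was 5.39 with saline, 5.00 with acetate, 5.29 with propionate and 5.86 with butyrate.

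Chemokines, the secreted guides of leukocyte movement, were higher at 23 of 28 genes and passed 1.5-fold at 7. Cxcl13, which attracts B cells, was at 7.93 with saline, 7.93 with acetate, 8.43 with propionate and 9.85 with butyrate, 3.78-fold above saline. The butyrate pool stood apart at this gene. Cxcl9, which attracts T cells through CXCR3, was at 8.00, 8.36, 8.76 and 9.11, with the acid pools all above saline. Cxcl10, a ligand of the same receptor, was at 5.94, 6.27, 5.92 and 6.84. Ccl5, made by T and NK cells among others, had a ratio of 0.79. The 14 chemokine receptors had a median of 0.044 with 0 past 1.5-fold, but only 1 of them was at or above the floor. Cxcr5, the receptor of Cxcl13, was at 3.70 with saline and 3.29 with butyrate, below the floor in both.

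Most interferon response genes were above saline with butyrate, and few passed 1.5-fold. Of 18 genes of the interferon gamma response 17 were above saline and 3 passed 1.5-fold, with a median of 0.28. Gbp8 and Gbp2, guanylate-binding proteins that act against intracellular microbes, had ratios of 0.71 and 0.52, and 0.71 is past the threshold. Of 21 genes of the type I interferon response 17 were above saline and 0 passed, with a median of 0.26, and the butyrate pool was the highest at 16. In antigen presentation, Tap1, the peptide transporter of MHC class I, was at 7.16, 6.93, 7.06 and 7.67, and Ifi30, a thiol reductase of class II processing, at 8.63, 8.73, 8.83 and 9.43. Both had only the butyrate pool high. Ifng itself lay below the floor, at 3.52 with saline and 3.71 with butyrate.

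Lymphocyte lists lay closer to 0 over all measured members, but most of these members were below the floor. The median was 0.085 over 12 T cell genes and -0.078 over 14 B and plasma cell genes, each with 0 past 1.5-fold, and all 12 T cell genes lay below the floor. The 2 B and plasma cell genes at or above the floor had a median of 0.13. The 13 NK and cytotoxic cell genes had a median of 0.19 with 1 past 1.5-fold, Ccl5. Only 2 of these 13 were at or above the floor, with a median of 0.64. The 22 sinusoidal endothelial genes had a median of 0.081 and 1 past, Lyve1, a hyaluronan receptor, at 0.67.

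**Figure D4:**
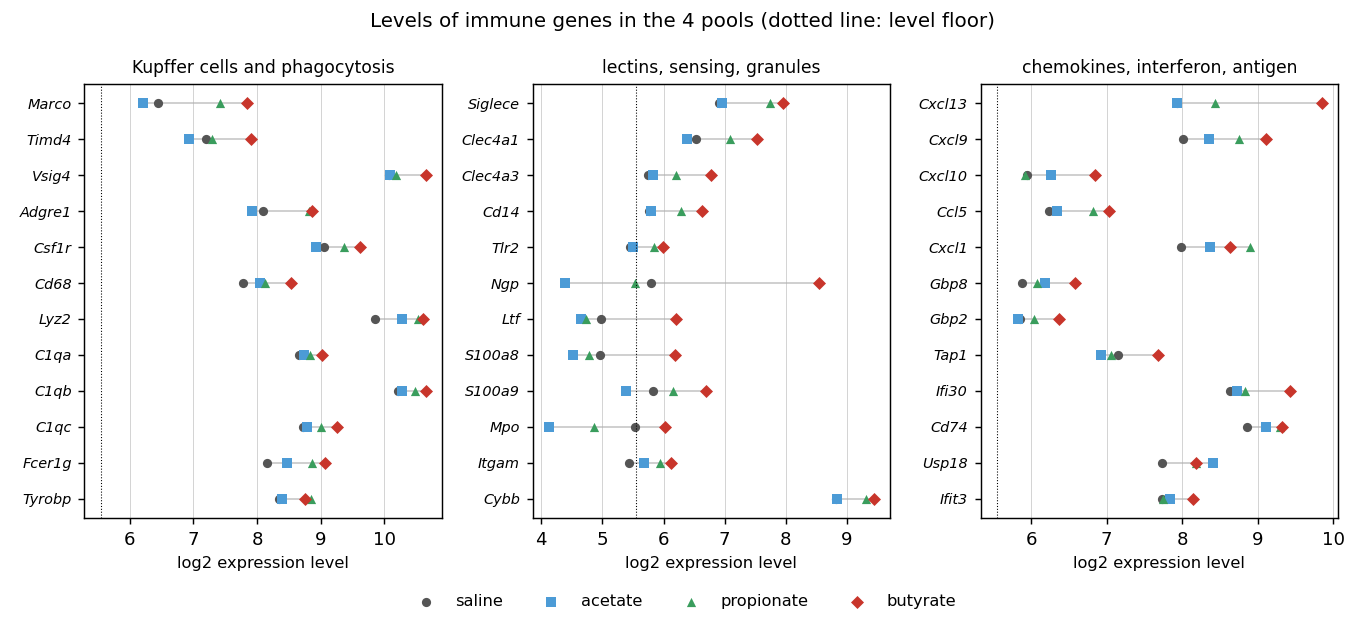
Log2 levels (horizontal axes) of immune genes in the 4 pools; each symbol is 1 pool, grey lines span the lowest and highest pool and the dotted line is the level floor of 5.55. The butyrate pool is the highest at Cxcl13, 9.85, and at Ngp, 8.54, with a wide gap to the others, while at Siglece, 7.95, and Adgre1, 8.86, the propionate pool lies close to it.

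Promoters of 3 interferon genes are shown, Cxcl9 and Cxcl10, which passed 1.5-fold, and Gbp2, which did not, because they hold a known response element. Gbp8, which also passed 1.5-fold, was searched too and gave no promoter with the element, so it is not shown. The letters searched were GAAANNGAA, the core of an interferon-stimulated response element, on both strands of the 250 bases before each gene's start (RefSeq, GRCm38.p6). They were in 9 of the 11 interferon gamma genes that had a promoter in the table (81.8%), in 9 of 16 type I genes (56.2%), in 11 of the 54 higher genes with a promoter (20.4%) and in 563 of 7608 genes at or above the floor (7.40%). The list members were chosen as interferon genes, so their share describes the lists. The 11 higher genes were 2610528A11Rik, Cxcl10, Cxcl9, Cybb, Fyb, Gm12250, Ms4a6c, Pilra, Sprr2a1, Timd4 and Tmsb4x. A match is a description of the letters and not of binding. In the 3 promoters here, 5′ to 3′ on each gene's strand, capitals mark the match, which in Gbp2 lies on the opposite strand. Cxcl9 is at chr5:92328080-92328329 on the minus strand, Cxcl10 at chr5:92348890-92349139 on the minus strand and Gbp2 at chr3:142620413-142620662 on the plus strand.
Cxcl9: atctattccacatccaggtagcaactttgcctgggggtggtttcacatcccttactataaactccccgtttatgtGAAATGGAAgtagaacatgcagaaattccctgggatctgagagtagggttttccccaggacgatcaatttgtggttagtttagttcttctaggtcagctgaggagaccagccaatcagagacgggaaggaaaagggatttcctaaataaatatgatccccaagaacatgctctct
Cxcl10: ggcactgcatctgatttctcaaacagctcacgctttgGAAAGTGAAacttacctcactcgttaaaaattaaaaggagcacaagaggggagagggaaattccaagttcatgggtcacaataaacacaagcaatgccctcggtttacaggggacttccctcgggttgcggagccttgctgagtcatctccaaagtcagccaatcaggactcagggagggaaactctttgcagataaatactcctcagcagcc
Gbp2: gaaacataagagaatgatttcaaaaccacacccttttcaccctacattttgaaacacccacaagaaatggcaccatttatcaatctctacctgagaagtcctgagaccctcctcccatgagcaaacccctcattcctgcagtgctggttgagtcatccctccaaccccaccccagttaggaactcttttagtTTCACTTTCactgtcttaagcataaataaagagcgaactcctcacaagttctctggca

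Cholesterol synthesis was lower with butyrate at all 18 measured genes, by less than 1.5-fold. None passed the threshold (0 of 18), and the median was -0.22, beside 51.3% of all genes at or above the floor that were below saline. The butyrate pool was the lowest of the 4 at 12 of the 18. Their medians against saline were -0.0039 for acetate and -0.063 for propionate, and these comparisons share the saline pool.

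By place in the pathway, the ratios differed from step to step. Hmgcs1, which makes HMG-CoA, was at 8.18 with saline, 8.21 with acetate, 8.28 with propionate and 8.05 with butyrate. Fdps, which builds farnesyl diphosphate, was at 10.24, 10.23, 10.08 and 9.69, a ratio of -0.56 that lay just outside the threshold. Idi1, the isomerase before it, had a ratio of -0.35, and Sqle, the squalene epoxidase, one of -0.33. After lanosterol, Cyp51, which removes its methyl group, was at 8.26, 8.48, 8.38 and 7.90. Nsdhl, a later demethylation enzyme, had a ratio of -0.37, while Msmo1, Hsd17b7 and Ebp lay between -0.04 and -0.01. At Fdps, Nsdhl, Cyp51, Idi1 and Sqle the butyrate pool was below all 3 others.

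The regulators of this pathway had no shared direction. SREBP-2, the transcription factor of cholesterol synthesis, is coded by Srebf2, at 8.16 with saline and 8.23 with butyrate. Insig1, which holds SREBP in the endoplasmic reticulum and is itself an SREBP target, had a ratio of -0.19. Mylip, which degrades the LDL receptor, and Abcg1, a cholesterol exporter, both targets of the sterol receptor LXR, had ratios of 0.23 each. Over the 16 genes of sterol sensing, uptake and export the median was 0.024 with 0 past 1.5-fold.

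The sterol regulatory element, searched as TCACNCCAC on both strands in the same windows, was in 1 of 15 cholesterol synthesis genes with a promoter (6.67%), beside 1.35% of the 7608 genes at or above the floor. This gene, Hmgcs1, is shown as the pathway's entry enzyme at chr13:119690101-119690350 on the plus strand, with the match in capitals.
Hmgcs1: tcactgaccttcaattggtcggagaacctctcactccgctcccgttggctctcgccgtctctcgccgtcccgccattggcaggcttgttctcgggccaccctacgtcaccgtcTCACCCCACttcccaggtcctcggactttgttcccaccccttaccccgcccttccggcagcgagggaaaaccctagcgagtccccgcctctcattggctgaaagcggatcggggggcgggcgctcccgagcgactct

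Fatty acid and triglyceride synthesis was lower at 17 of 24 genes, with 0 past 1.5-fold and a median of -0.095. Acss2, which activates acetate in the cytosol, was at 10.24 with saline, 10.01 with acetate, 10.01 with propionate and 9.75 with butyrate. Thrsp, a regulator of lipogenesis, was at 10.07, 10.02, 9.80 and 9.56. Srebf1, which codes for SREBP-1, had a ratio of -0.32, with the butyrate pool the lowest. At Pnpla3, a lipid droplet hydrolase, the saline pool was the high one, at 6.55 against 6.17, 6.21 and 6.15. Fasn and Acaca, the core enzymes of fatty acid synthesis, had ratios of -0.22 and -0.25, and Scd1, the desaturase, was at 13.25 with saline and 13.26 with butyrate. Angptl8, an insulin-induced inhibitor of lipoprotein lipase that was not in this list, was at 8.50, 8.04, 8.23 and 7.86. Its ratio of -0.65 passed 1.5-fold, with the saline pool the highest. Over the mean of the saline, acetate and propionate pools the ratio was -0.40, which did not pass.

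**Figure D5:**
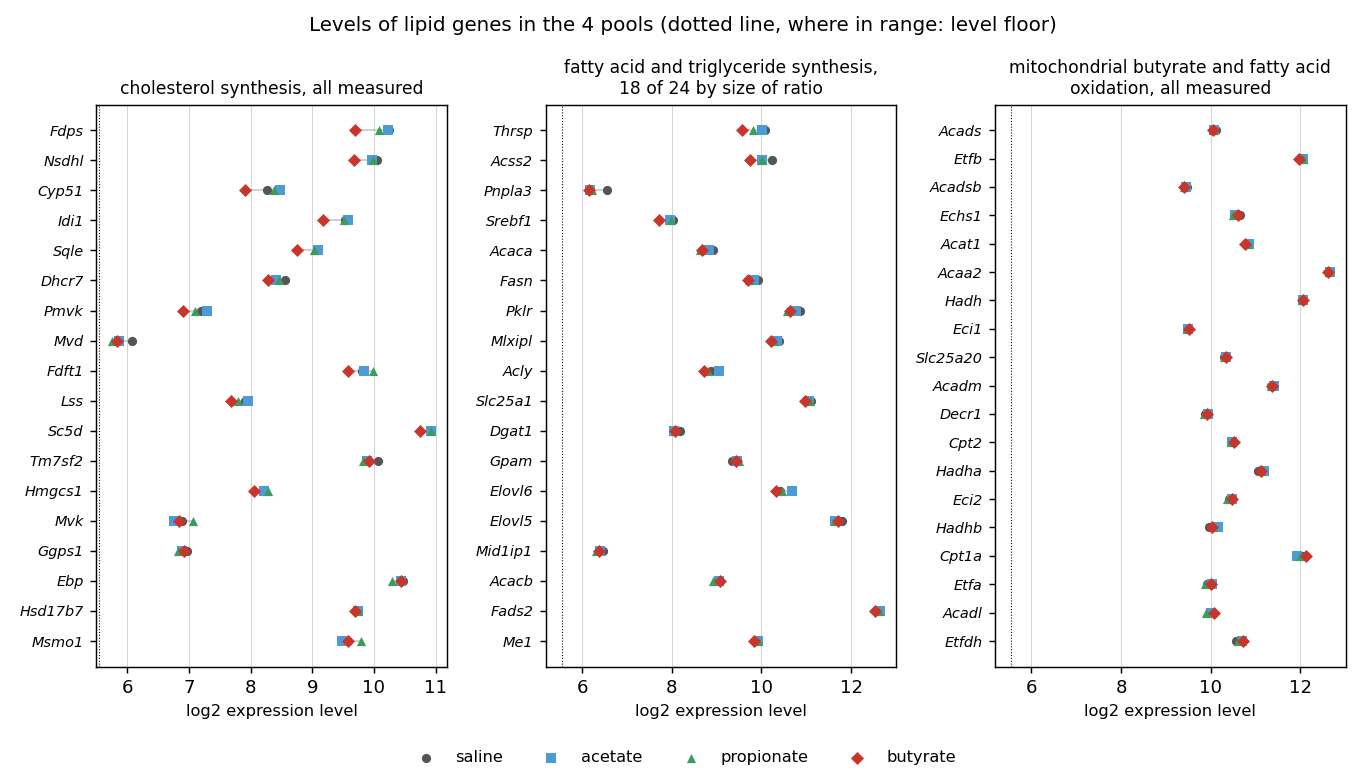
Log2 levels (horizontal axes) in the 4 pools of cholesterol synthesis genes (left), of the 18 of 24 fatty acid and triglyceride synthesis genes with the largest ratios (middle) and of mitochondrial butyrate and fatty acid oxidation genes (right); each symbol is 1 pool. The butyrate pool lies left of the others at Fdps, 9.69, and at Thrsp, 9.56, while at the oxidation genes the butyrate and saline pools nearly coincide.

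The enzymes of mitochondrial butyrate and fatty acid oxidation were at nearly the same level in both pools. The 19 genes of mitochondrial butyrate and fatty acid oxidation had log2 ratios between -0.06 and 0.16, a median of 0.042 and 0 past 1.5-fold. Acads, the short-chain acyl-CoA dehydrogenase that takes butyryl-CoA, was at 10.11 with saline, 10.07 with acetate, 10.06 with propionate and 10.05 with butyrate. Etfdh, which passes its electrons to the respiratory chain, had the largest ratio, 0.16. Among 9 acyl-CoA synthetases the median was 0.014, with ratios between -0.495 and 0.07. Of these, 4 were below saline, and the butyrate pool was the lowest of the 4 pools at 4. Acsm1 and Acsm5, medium-chain synthetases of the mitochondrial matrix, had ratios of 0.04 and 0.07. Of 7 ketone body genes 0 passed 1.5-fold, and Bdh1, which interconverts acetoacetate and beta-hydroxybutyrate, was at 10.20 with saline and 10.09 with butyrate.

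Transporters and receptors of short-chain acids had a median of -0.035 over 14 genes, with 0 past 1.5-fold. The butyrate pool was the lowest of the 4 at 9 of the 14 and the highest at 3. Only 5 of the 14 were at or above the floor. Slc16a1 and Slc16a7, monocarboxylate transporters, had ratios of -0.02 and -0.03. The acid receptors Ffar2, Ffar3 and Hcar2 lay below the floor, with ratios of -0.24, -0.04 and -0.15. Slc5a8, a sodium-coupled butyrate transporter of colon cells, also below the floor, was at 3.27 with saline, 3.11 with acetate, 3.34 with propionate and 3.78 with butyrate. The butyrate pool was the highest at this gene, as at the colon genes above, and the part of colon RNA in it was not tested.

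Histone deacetylases, among them enzymes that butyrate inhibits as proteins, and their partners had a median log2 ratio of 0.005 over 17 genes. Hdac1, Hdac2 and Hdac3, the class I enzymes of the large nuclear complexes, had ratios of 0.06, 0.11 and 0.03. Hdac8 had the lowest ratio, -0.24, and Hdac9, below the floor, the highest, 0.37. Over 8 genes known to be induced by deacetylase inhibitors the median was 0.11 and 0 passed 1.5-fold. Cdkn1a, the cell cycle inhibitor p21 and a standard marker of such inhibition, was at 8.49 with saline, 9.06 with acetate, 8.85 with propionate and 8.36 with butyrate. H1f2, a linker histone, had a ratio of 0.30.

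Glucose and bile acid genes mostly lay near saline. Over 16 gluconeogenesis genes the median was 0.020, over 17 glycolysis and glycogen genes 0.010 and over 20 bile acid genes 0.011, each with 0 past 1.5-fold. Ppp1r3g, a glycogen-targeting subunit of protein phosphatase 1, was at 7.11, 7.76, 7.26 and 7.58 in the order saline, acetate, propionate and butyrate. Cyp8b1, the 12-alpha-hydroxylase that sets the share of cholic acid, was at 9.69, 9.06, 9.70 and 10.11, with the acetate pool low and the butyrate pool high. Cyp2b9, a drug-metabolising P450, was at 5.45, 7.99, 8.28 and 5.05, so butyrate stood beside saline and apart from the other acids.

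Stress responses differed in direction. Ddit4, an inhibitor of mTORC1 induced by stress and glucocorticoids, was at 7.43 with saline, 7.85 with acetate, 7.81 with propionate and 8.44 with butyrate, a ratio of 1.00. Of 21 genes of the unfolded protein response 18 were below saline and 1 passed 1.5-fold, Sdf2l1, a chaperone partner in the endoplasmic reticulum, at 9.91, 9.19, 8.95 and 9.07. The saline pool was the highest at 12 of these 21, and with the mean of the saline, acetate and propionate pools as reference the median of the list was 0.0099. NRF2 target genes had a median of -0.028 with butyrate, beside 0.23 with acetate and 0.25 with propionate against the same saline pool, and Hmox1, the heme oxygenase, was at 9.53 with saline, 9.05 with acetate, 9.98 with propionate and 10.05 with butyrate. Cell cycle genes were above saline at 20 of 24 with 2 past 1.5-fold, Mki67 and Ccna2. Mki67, the proliferation marker Ki-67, was at 5.19, 6.16, 6.04 and 6.06, so the saline pool was low and the 3 acid pools were alike. The cell cycle median was 0.16 over saline and -0.025 over the mean of the 3 other pools.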

How the data were processed

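RNA of the 4 liver pools (22 mice) was measured on 1 whole-transcript array each, with 500 ng per mouse entering a pool and 100 ng of pooled RNA entering cDNA synthesis; RNA integrity numbers were above 8, per the labels' protocols. The deposited values were log2 expression per probe set. RMA, which subtracts background, equalises the distributions of the arrays and combines probes into probe sets, was named in the submitters' processing notes, without settings. Array medians lay between 5.11 and 5.12, so a shift of all genes in 1 pool would not be visible. The number of arrays limits the precision.

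Names came from GEO's annotation of the platform: 21218 of 35556 probe sets had 1 symbol, 1881 several and 12457 none. Those with 1 symbol were averaged per symbol, giving 18820 genes. The unmapped data columns numbered 0. Ratios, counts and medians were computed with Python 3.11.15 and pandas 2.3.3. Cyclic loess used limma 3.58.1 in R 4.3.3. The functions were tested on simulated data.

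The members and the 62 gene lists (1061 symbols, 955 measured) were chosen with earlier results of these data known. Genes were named by rule: the 30 highest and 30 lowest ratios, up to 8 members per list (all of them for the lists on butyrate use, cholesterol and histone deacetylases), and the genes at which 1 pool lay farthest from the other 3. Id3, Scd1, Zg16, the gene next to the threshold and 5 of the genes with an interferon element (2610528A11Rik, Fyb, Gm12250, Ms4a6c and Tmsb4x) fall outside the rule and were named after their values were seen. Alternatives changed the floor, the probe set rule, the normalisation, the threshold and the reference pool.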

Additional observations from a re-analysis of the deposited data

Results flagged for a closer look

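Probe sets with several gene symbols entered no comparison of genes. Of the 835 of them at or above the floor, 7 were higher and 1 was lower with butyrate by 1.5-fold or more. The highest was the probe set shared by Sprr2a1, Sprr2a2 and Sprr2a3, epithelial cornified envelope genes, with a log2 ratio of 2.25 over saline. This probe set was outside the main measurement. Sprr2a1 itself was in it through probe sets of its own, with a ratio of 1.27, and was counted in the gut absorptive cell list.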

How the results depend on the processing

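The count of 71 genes higher with butyrate was 137 with no floor, 21 with the floor at the 75th percentile, 211 at 1.3-fold, 14 at 2-fold and 40 with the mean of saline, acetate and propionate as reference. The count of 34 genes lower was 116, 6, 115 and 15 under the first 4 of these, 16 with both pools at or above the floor, and 15 without the muscle, gut, pancreatic, adipocyte and red cell genes, an alternative chosen after seeing the data. The butyrate pool stood apart at 33 genes, at 20 by 2-fold and at 77 with no floor, and the saline pool at 5, 0 and 25. Cyclic loess, the highest probe set and centring moved no count by over 1.5 times. With that mean as reference, 12 of 62 list medians changed sign. Of these, the cell cycle list came to -0.025, the pancreatic list to 0.11, the unfolded protein response list to 0.0099, the stellate list to -0.18 (from 0.060), the immediate early list to -0.12 (from 0.057) and the glycolysis list to -0.025 (from 0.0096). The other 6 had medians between -0.0074 and 0.067 over saline. The causes were not tested. No paired analysis was possible because each group was 1 pool on 1 array. Levels near the floor limit the size of ratios there.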
